A study of Mus musculus with 6 samples.

Results

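The genes described here are 9 keratins and the transcription factor Trp63, measured in whole fetal mouse lungs at E16.5, counted in embryonic days. They were taken as every probe set, a group of probes that reads out a transcript, that the platform annotation gives to exactly 1 of these genes. That rule found 20 of 45037 probe sets, which cover all 10 genes. A further probe set, shared by Krt14 and Krt17, was left out. The 3 Hopx-null lungs carried Hopx -/- and the 3 wild-type lungs carried Hopx +/+. Both genotypes were on a strain background given only as mixed, and no lung received a treatment that the labels name. The null allele, and whether the embryos of a genotype shared a litter, are not stated in the sources used here. P-values therefore set the difference between genotypes against the spread of these lungs within a genotype, and neither litter nor sex is accounted for. Each lung was microdissected and its total RNA was hybridised to 1 array.

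Keratins are the intermediate filament proteins of epithelia, and a filament is built from pairs of a type I and a type II chain. Krt8 and Krt7 (type II) and Krt18 and Krt19 (type I) form the filaments of simple, unstratified epithelium, which in the fetal lung lines the airways and the distal tubules. Krt5 (type II) pairs with Krt14 or Krt15 (type I) in basal cells, the stem cells of pseudostratified and stratified epithelium, which in the mouse lie mainly in the trachea and largest airways. Trp63 encodes p63, the transcription factor that basal cells depend on. Krt4 (type II) and Krt13 (type I) pair in the upper layers of stratified squamous epithelium such as that of the oesophagus. Hopx encodes a small homeodomain protein found in distal lung epithelium.

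Both Hopx probe sets were lower in Hopx-null lungs. At 1451776_s_at Hopx-null lungs read 4.59 to 4.96 and wild-type lungs 10.41 to 10.96. At 1428662_a_at they read 10.35 to 10.64 and 12.26 to 12.50, so signal there stayed above the arrays' upper quartile in every Hopx-null lung. Why it remained was not tested. The log2 difference was -5.94 (SE 0.17, limma, Benjamini-Hochberg adjusted p = 0.000375) at the 1451776_s_at probe set and -1.91 (SE 0.11, limma, Benjamini-Hochberg adjusted p = 0.0228) at the 1428662_a_at probe set. The call at 1428662_a_at was lost with the replicate number as a block (limma, Benjamini-Hochberg adjusted p = 0.299) and when Hopx-null replicate 2 or 3 or wild-type replicate 2 or 3 was left out (0.103 to 0.413). It was also lost with 64 added before the log (limma, Benjamini-Hochberg adjusted p = 0.12) and in the lungs without Y-linked signal (0.926). The difference at 1428662_a_at stayed between -2.02 and -1.84 in every setting run, and 1451776_s_at passed each time. The Hopx probe sets were the 2 of 45037 probe sets that passed, or 0.00444%. Correlations between arrays were 0.991 to 0.995 within a genotype and 0.989 to 0.995 between genotypes. Signal from the Y-linked gene Eif2s3y was present in wild-type replicates 2 and 3, at 11.72 and 11.56, and lay between 2.88 and 3.13 in the other lungs. All 10 markers listed for lung epithelium lay above the median of the arrays in every lung.

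The promoter windows of Krt7, Krt8 and Krt18 are shown because Krt8 and Krt18 had the highest correlation between lungs among the members and Krt7 did not follow them, and that of Krt5 because it is the basal type II keratin. Of the 10 genes, 6 were in the RefSeq promoter table of build GRCm38.p6. Each window holds 250 bases before and 50 bases after an annotated start, printed 5′ to 3′ on the strand of the gene. Capitals mark every match, on either strand, to TATAAA, to GGGCGG or to the p53-family motif RRRCWWGYYY. In it R is A or G, W is A or T and Y is C or T. The full element that p53, p63 and p73 recognise repeats this motif, and the full element was not searched for.
Krt7, chr15:101412153-101412452, plus strand: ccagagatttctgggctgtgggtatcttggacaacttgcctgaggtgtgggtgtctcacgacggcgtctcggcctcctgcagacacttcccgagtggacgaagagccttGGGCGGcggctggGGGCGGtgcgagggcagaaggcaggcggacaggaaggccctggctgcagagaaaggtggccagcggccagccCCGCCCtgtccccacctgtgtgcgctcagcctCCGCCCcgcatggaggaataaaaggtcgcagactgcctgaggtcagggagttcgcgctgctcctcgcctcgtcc
Krt8, chr15:102004293-102004592, minus strand: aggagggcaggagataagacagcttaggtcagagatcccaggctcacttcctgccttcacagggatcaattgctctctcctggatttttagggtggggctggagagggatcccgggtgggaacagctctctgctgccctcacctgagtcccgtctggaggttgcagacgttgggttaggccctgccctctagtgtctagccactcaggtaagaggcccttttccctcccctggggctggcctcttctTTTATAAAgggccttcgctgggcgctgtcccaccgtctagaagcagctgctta
Krt18, chr15:102027966-102028265, plus strand: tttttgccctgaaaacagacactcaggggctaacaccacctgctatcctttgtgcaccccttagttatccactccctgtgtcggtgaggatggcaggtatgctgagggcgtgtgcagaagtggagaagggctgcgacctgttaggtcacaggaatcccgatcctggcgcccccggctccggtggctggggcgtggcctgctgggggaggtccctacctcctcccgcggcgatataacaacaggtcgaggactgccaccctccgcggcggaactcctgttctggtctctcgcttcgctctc
Krt5, chr15:101712856-101713155, minus strand: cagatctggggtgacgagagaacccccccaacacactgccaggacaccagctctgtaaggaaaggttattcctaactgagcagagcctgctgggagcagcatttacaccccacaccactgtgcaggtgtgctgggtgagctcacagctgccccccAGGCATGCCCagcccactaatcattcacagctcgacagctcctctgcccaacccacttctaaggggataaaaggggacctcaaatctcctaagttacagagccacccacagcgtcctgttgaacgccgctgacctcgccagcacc
Counting from 1 at the 5′ end of each window, TATAAA matched in Krt8 at bases 248 to 253 on the minus strand and at bases 250 to 255 on the plus strand, and these matches overlap. GGGCGG matched at 4 places in the Krt7 window, which begin at bases 110, 123, 195 and 227. The p53-family motif matched in the Krt5 window at bases 156 to 165 only, on both strands. Over all 32851 windows of the same length, 13.6% held TATAAA, 35.7% held GGGCGG and 8.36% held the p53-family motif. CCAAT and TGANTCA, the core of AP-1 sites, were also searched on both strands. Among the members both were found only in windows of Krt13, against 37.4% and 7.81% of all windows. A match describes these letters and is no evidence of binding. Krt8 and Krt18 are immediate neighbours in the order of coding genes, although they encode a type II and a type I chain.

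The simple-epithelium keratins read high and the basal and squamous genes read low. All 6 probe sets of Krt7, Krt8, Krt18 and Krt19 exceeded the arrays' upper quartile (9.02 to 9.05) in every lung. None of the 14 probe sets of the basal and squamous genes did. Of those 14, 7 lay between the lower quartile (4.24 to 4.30) and the median (6.67 to 6.72) in every lung, 4 lay below the lower quartile in every lung, where signal is close to background, and 3 crossed a quartile. Probe sets differ in how brightly they bind, so these positions say where each lies on the array and are no ratio of transcripts. In whole lungs, fewer cells of a type and less RNA per cell cannot be told apart.

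**Figure D1:**
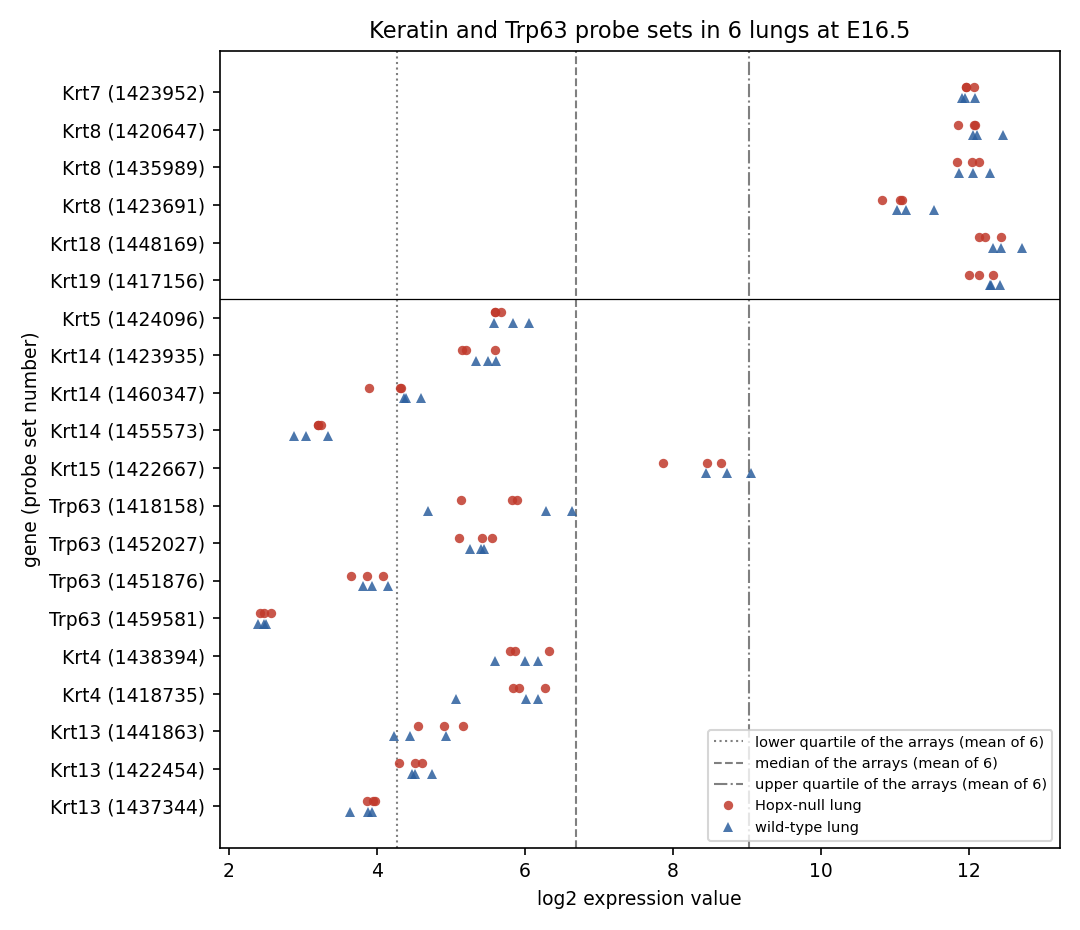
Log2 expression value (horizontal axis) of each keratin and Trp63 probe set (vertical axis) in each of 3 Hopx-null lungs (circles) and 3 wild-type lungs (triangles), with vertical lines at the mean quartiles of the 6 arrays. The 6 simple-epithelium probe sets above the horizontal line lie right of the upper quartile in all lungs, and of the others Krt15 at 7.87 to 9.05 lies highest.

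No member differed between genotypes beyond the spread of the lungs. Of the 20 probe sets, 0 passed limma at an adjusted p under 0.05, against 0.00444% of all probe sets, and 0 had an unadjusted p under 0.05, against 4.77%. The smallest Benjamini-Hochberg adjusted p among them in limma was 0.878. Hopx-null values were on average lower at 13 probe sets (48.6% of all probe sets were lower) and higher at 7 (51.4% of all probe sets were higher). The median log2 difference was -0.10, beside 0.01 over all probe sets. The groups failed to overlap at 1 of the 20, in the lower direction, against 10.1% of all probe sets in either direction and 4.54% with Hopx-null lower.

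**Figure D2:**
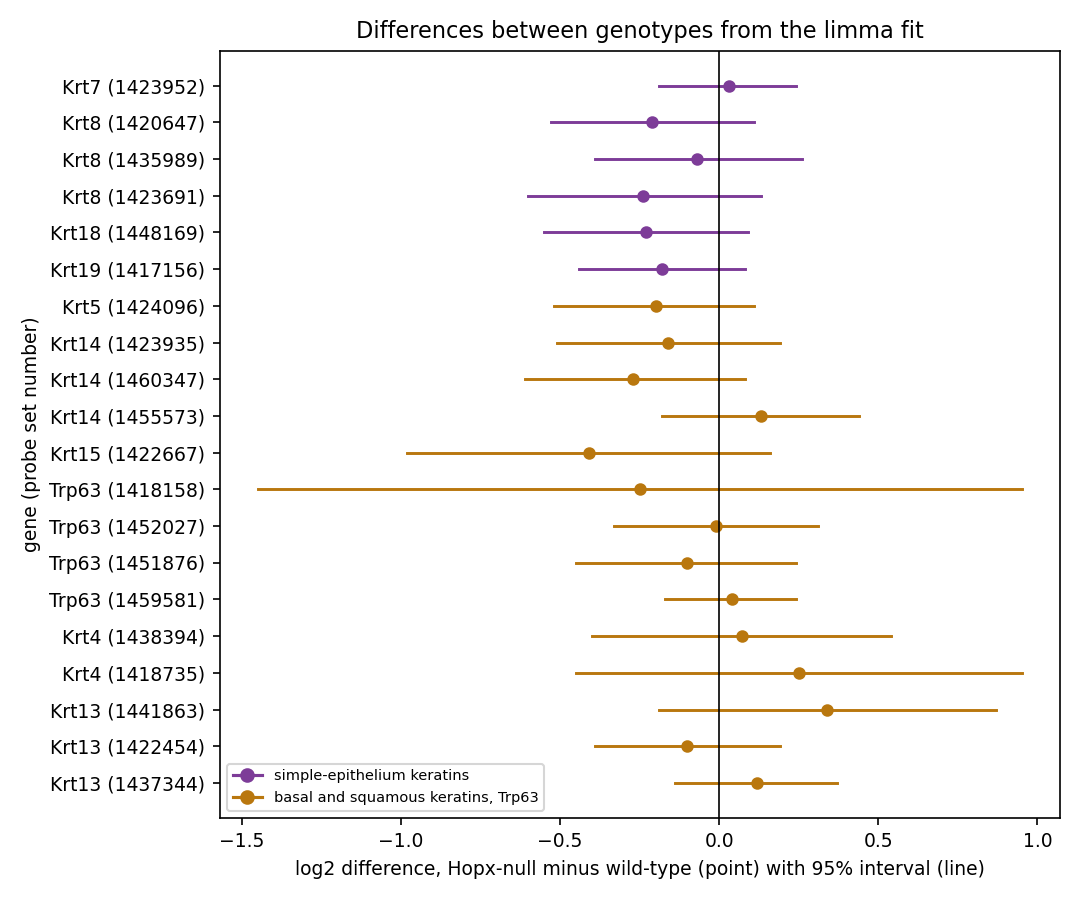
Log2 difference between Hopx-null and wild-type lungs (horizontal axis, points) with the 95% interval of the limma fit (lines), for each probe set (vertical axis, 3 lungs per genotype). Every interval includes 0, and that of the 1418158_at probe set of Trp63, from -1.45 to 0.95, is the widest.

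Among the simple keratins, Krt8, the type II chain that appears earliest in embryonic epithelium, was read by 3 probe sets. At the brightest, 1420647_a_at, it read 11.85, 12.08 and 12.07 in Hopx-null lungs 1 to 3 and 12.11, 12.06 and 12.46 in wild-type lungs 1 to 3. Wild-type replicate 3 was the highest lung and Hopx-null replicate 1 the lowest, and the groups overlapped. The log2 difference was -0.21 (SE 0.13, 95% interval -0.53 to 0.11, limma, Benjamini-Hochberg adjusted p = 0.878). The other Krt8 probe sets gave -0.07 (SE 0.14) at 1435989_x_at and -0.24 (SE 0.15) at 1423691_x_at. The suffix x_at marks probe sets with probes that can also match other transcripts. Across lungs they followed the brightest probe set with r = 0.86 and r = 1.00 (n = 6, on shared arrays).

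Krt18, the type I partner of Krt8, read 12.22, 12.43 and 12.13 in Hopx-null lungs 1 to 3 and 12.43, 12.33 and 12.71 in wild-type lungs 1 to 3. As for Krt8, wild-type replicate 3 stood highest, and the groups overlapped. Its log2 difference was -0.23 (SE 0.13, 95% interval -0.55 to 0.09, limma, Benjamini-Hochberg adjusted p = 0.878).

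Krt19, a type I keratin found in simple epithelium and in many progenitor cells, read 12.00, 12.32 and 12.14 in Hopx-null and 12.42, 12.30 and 12.29 in wild-type lungs 1 to 3. The wild-type lungs lay close together, and Hopx-null replicate 2 lay among them. The log2 difference was -0.18 (SE 0.11, 95% interval -0.44 to 0.08). Krt7, the type II keratin of ducts and distal airways, was the steadiest simple keratin. It read 11.96, 12.07 and 11.96 in Hopx-null and 12.08, 11.90 and 11.94 in wild-type lungs 1 to 3, a range of 0.17 over all lungs. Its difference was 0.03 (SE 0.09, 95% interval -0.19 to 0.24), so that a change of more than 0.24 in either direction lies outside the interval.

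The spread within a genotype set Krt7 apart from Krt8 and Krt18. For Krt7 the within-genotype SD was 0.079, near the median of 0.084 for 1707 probe sets within 0.5 of its level. For Krt18 it was 0.175, larger than that of 92% of 1212 probe sets of like level, and for Krt8 at its brightest probe set 0.177, larger than that of 91.3% of 1563. Krt19 lay between them at 0.125, larger than that of 79% of 1361. These are descriptions of 3 lungs a genotype, without a test.

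Among the basal cell genes, Krt15 was the brightest. It read 7.87, 8.46 and 8.65 in Hopx-null lungs 1 to 3 and 8.44, 9.05 and 8.73 in wild-type lungs 1 to 3. Hopx-null replicate 1 was the lowest lung and wild-type replicate 2 the highest, and the groups overlapped. The log2 difference of -0.41 was the largest in size among the 20 probe sets, with an SE of 0.24, a 95% interval from -0.98 to 0.16 and an adjusted p of 0.878 (limma, Benjamini-Hochberg). Leaving out each lung in turn, it ranged from -0.57 to -0.18, the last without Hopx-null replicate 1. Its within-genotype SD of 0.361 was larger than that of 89.6% of 4888 probe sets of like level.

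Krt5, the defining type II keratin of basal cells, read 5.68, 5.60 and 5.59 in Hopx-null lungs 1 to 3 and 5.58, 6.05 and 5.84 in wild-type lungs 1 to 3. The Hopx-null lungs and wild-type replicate 1 lay together, with wild-type replicates 2 and 3 above them. The log2 difference was -0.20 (SE 0.13, 95% interval -0.52 to 0.11). Against wild-type replicate 1 alone, the wild-type lung without Y-linked signal, it was 0.04, so that its sign rests on wild-type replicates 2 and 3.

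Krt14, the type I partner of Krt5, was brightest at the 1423935_x_at probe set. There it read 5.21, 5.60 and 5.15 in Hopx-null and 5.34, 5.61 and 5.50 in wild-type lungs 1 to 3, with overlap. At the 1460347_at probe set it read 4.31, 4.33 and 3.89 in Hopx-null and 4.39, 4.59 and 4.36 in wild-type lungs. This was the member probe set without overlap between genotypes, with values around the lower quartile of the arrays. Its difference was -0.27 (SE 0.14, limma, Benjamini-Hochberg adjusted p = 0.878). The third Krt14 probe set, below the lower quartile in every lung, differed by 0.13 (SE 0.13), in the other direction.

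Trp63 varied more between lungs than any other member. At the 1418158_at probe set it read 5.83, 5.13 and 5.89 in Hopx-null lungs 1 to 3 and 4.69, 6.29 and 6.63 in wild-type lungs 1 to 3. The highest and the lowest lungs were both wild-type, with the Hopx-null lungs inside their range. The log2 difference was -0.25 (SE 0.50, 95% interval -1.45 to 0.95, limma, Benjamini-Hochberg adjusted p = 0.948). It turned to 0.13 without wild-type replicate 3, was -0.84 without wild-type replicate 1 and 0.93 against wild-type replicate 1 alone. The within-genotype SD of 0.79 was larger than that of 98.1% of 4795 probe sets of like level. The 3 other Trp63 probe sets ranged over at most 0.51 between lungs and did not follow it, with r of -0.14, -0.73 and 0.08 (n = 6). Of these, 2 lay below the lower quartile in every lung. Trp63 produces several isoforms, and the sources used here do not state which of them each probe set reads.

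The squamous keratins read below the median of the arrays. Both Krt4 probe sets lay between the lower quartile and the median in every lung. At the brighter one, 1438394_x_at, Krt4 read 5.87, 5.80 and 6.32 in Hopx-null and 6.0, 6.18 and 5.60 in wild-type lungs 1 to 3. The difference was 0.07 (SE 0.20, 95% interval -0.40 to 0.54). Wild-type replicate 3 was the lowest lung there and at its other probe set, where it read 5.07 against 5.84 to 6.27 in the other lungs. Krt4 turned to -0.09 without wild-type replicate 3 at both probe sets.
At its brightest probe set, 1441863_x_at, Krt13 read 5.16, 4.55 and 4.91 in Hopx-null and 4.44, 4.93 and 4.23 in wild-type lungs 1 to 3. The difference was 0.34 (SE 0.22, 95% interval -0.19 to 0.87). The other Krt13 probe sets differed by -0.10 and 0.12, and the brightest correlated with them at r = -0.69 and r = 0.61 (n = 6). The 1422454_at probe set, the only Krt13 probe set without the x_at suffix, ran against both others, with r = -0.69 and r = -0.87 (n = 6). The 3 probe sets of Krt13 thus gave no common order of the lungs. Whether the x_at probe sets of Krt13, Krt4 and Krt14 also read other transcripts was not tested.

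**Figure D3:**
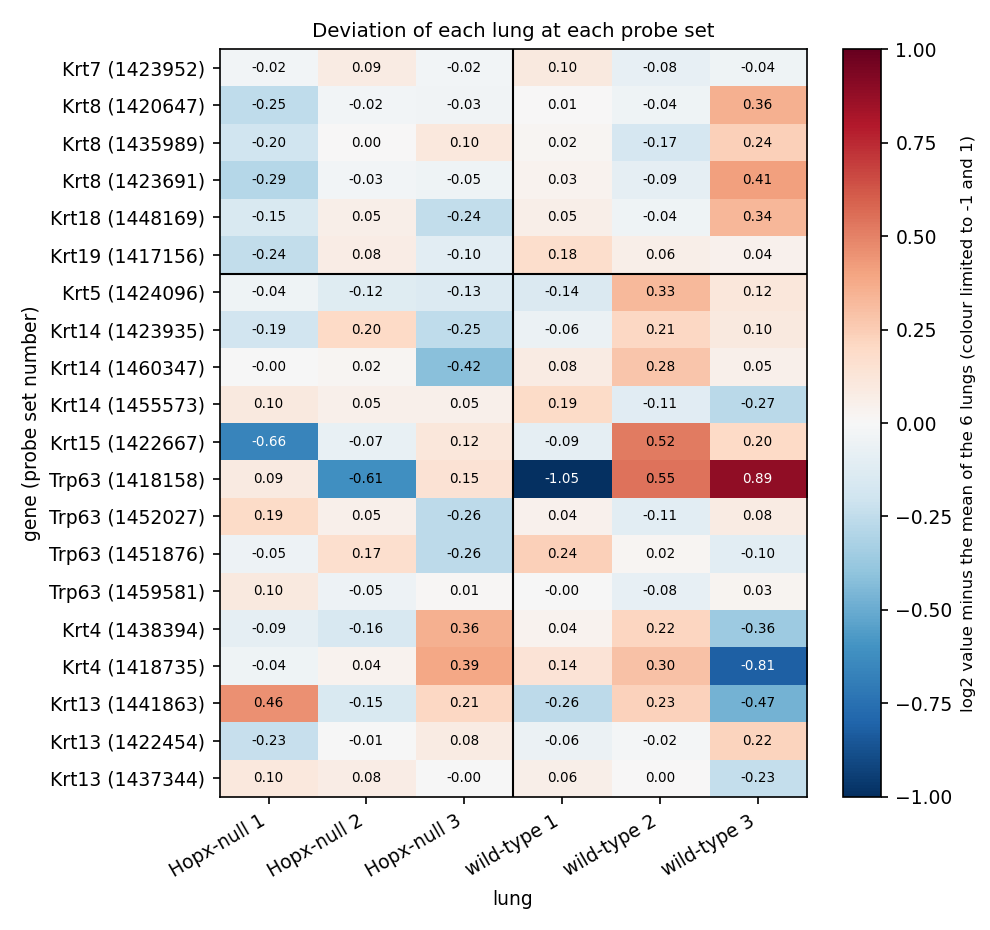
Deviation of each lung (columns) from the mean of the 6 lungs at each member probe set (rows), as log2 values, with red above and blue below that mean. Wild-type replicate 3 stands above the mean at all Krt8 and Krt18 probe sets and below it at Krt4, and the largest deviation, in wild-type replicate 1, is at the 1418158_at probe set of Trp63.

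Epithelial markers other than keratins were read beside these values. Of the 10 lung epithelium genes 7 were lower and 3 higher in Hopx-null lungs, with a median of -0.07 and summed levels of 14.97 to 15.08 against 15.00 to 15.10 in wild-type lungs. The summed level, the log2 of the sum of unlogged values, follows the brightest genes, here the surfactant gene Sftpc and the claudin Cldn18. The mean log2 value over the 10 genes was 10.68, 10.58 and 10.53 in Hopx-null and 10.68, 10.80 and 10.74 in wild-type lungs 1 to 3. The Ets factor Ehf had the largest difference, -0.68 (SE 0.24, limma, Benjamini-Hochberg adjusted p = 0.878). It read 8.28, 7.92 and 7.89 in Hopx-null and 8.17, 8.99 and 8.97 in wild-type lungs 1 to 3, with wild-type replicate 1 among the Hopx-null lungs. The transcription factors Foxa2, Nkx2-1 and Foxa1 differed by -0.28 (SE 0.16), -0.23 (SE 0.11) and -0.19 (SE 0.09). The groups did not overlap for Nkx2-1 and Foxa1, 2 of 10, against 10.1% of all probe sets. The adhesion genes Epcam and Cdh1, picked after their values were seen, differed by -0.07 (SE 0.09) and -0.06 (SE 0.10). None of the 10 passed limma over all probe sets. The part of epithelial content in the keratin values was not tested.

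Set against each other, simple and basal or squamous genes did not part by genotype. With the brightest probe set per gene, the median difference was -0.20 over the 4 simple keratins, of which 3 were lower in Hopx-null lungs, and -0.18 over the 6 basal and squamous genes, of which 4 were lower. The median over all genes was 0.01. Each gene was then expressed as its deviation from the mean of the 6 lungs and averaged within its class. The simple class averaged -0.07 ± 0.11 (SD, n = 3) in Hopx-null and 0.07 ± 0.10 (SD, n = 3) in wild-type lungs. The basal and squamous class averaged -0.05 ± 0.12 (SD, n = 3) and 0.05 ± 0.30 (SD, n = 3).
The simple minus the basal and squamous deviation was -0.10, 0.20 and -0.18 in Hopx-null lungs 1 to 3. It was 0.34, -0.37 and 0.09 in wild-type lungs 1 to 3. Wild-type lungs 1 and 2 lay at the extremes, and the genotype means differed by -0.05, less than the SD within either genotype. Over every probe set they differed by -0.11, with SDs of 0.12 in Hopx-null and 0.25 in wild-type lungs (n = 3 each). With every probe set the basal and squamous median was -0.05 and the simple median -0.20. Leaving out wild-type replicate 2 brought the basal and squamous median to -0.06, leaving out Hopx-null replicate 2 brought it to -0.10 and leaving out wild-type replicate 1 to -0.28. It was 0.02 against wild-type replicate 1 alone. Leaving out wild-type replicate 3 brought the simple median to -0.11, and leaving out Hopx-null replicate 1 to -0.12.

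Across lungs, the filament partners Krt8 and Krt18 had the highest correlation among the 45 pairs of member genes. Pearson's r was 0.841 (exact permutation p = 0.0611, Benjamini-Hochberg adjusted over 45 pairs 0.55) and Spearman's rho 0.812 (exact permutation p = 0.0722, adjusted 0.578), over 6 lungs. Without the 2 lungs farthest from the median of Krt8, r was 0.536. Leaving them out narrows the range of Krt8, which can lower r by itself, so whether the relation rests on them cannot be told. Within genotypes it was 0.749. The basal partners Krt5 and Krt14 had r = 0.568 (exact permutation p = 0.244, adjusted 0.71; rho = 0.6, exact permutation p = 0.242, adjusted 0.762), which was -0.279 without the 2 lungs farthest in Krt5.
The lowest correlation was between Krt7 and Trp63, with r = -0.922 (exact permutation p = 0.0194, adjusted 0.292) and rho = -0.886 (exact permutation p = 0.0333, adjusted 0.5). It was -0.544 without the 2 lungs farthest in Krt7 and -0.919 within genotypes. Trp63 was taken here at 1418158_at, which its other probe sets did not follow (r of -0.14, -0.73 and 0.08). Krt7 ranged over only 0.17 between lungs. Krt8 and the brightest Krt13 probe set ran in opposite order in all lungs, with rho = -1 and r = -0.864. Their exact permutation p-values of 0.00278 and 0.00139 are the smallest that 6 lungs can give, and became 0.125 and 0.0625 after Benjamini-Hochberg adjustment. Without the 2 lungs farthest in Krt8, r was -0.867. The other Krt13 probe sets do not share the order of that one, which carries the x_at suffix. After adjustment 0 of 45 pairs passed.

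**Figure D4:**
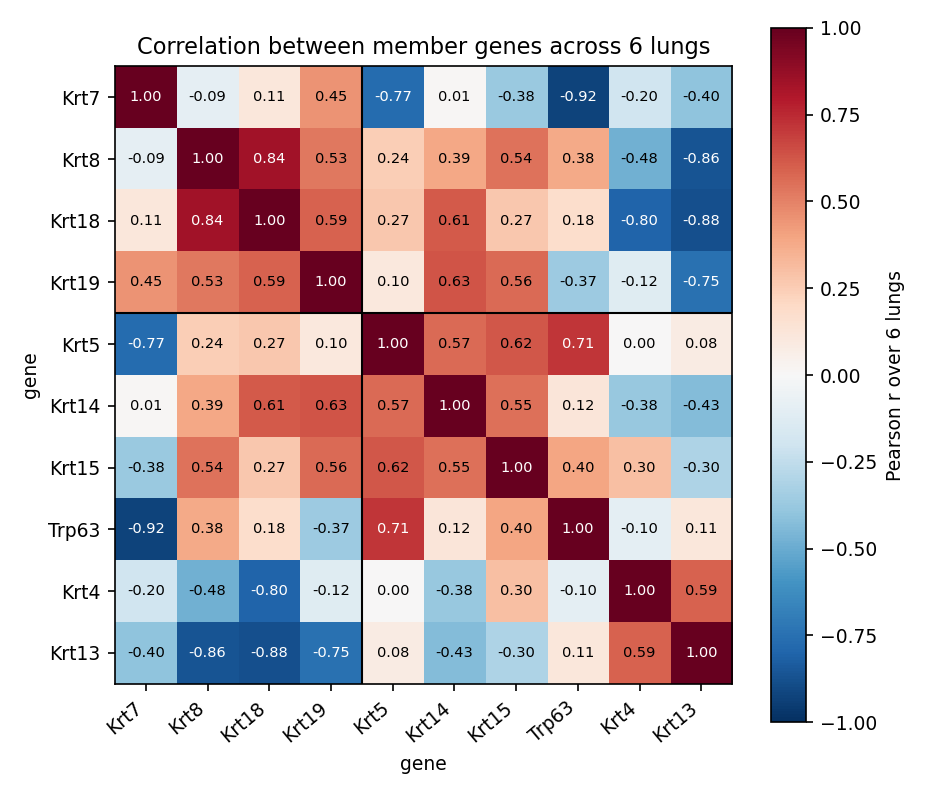
Pearson correlation over the 6 lungs between the 10 member genes, each at its brightest probe set, with lines between the simple and the basal or squamous genes. The brightest probe set of Krt14, of Krt4 and of Krt13 carries the x_at suffix. Krt8 and Krt18 reach 0.84, Krt7 and Trp63 -0.92, and the 24 pairs across the classes have a median of -0.06.

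At the 1418158_at probe set, the lungs with high Trp63 were also those with high cartilage markers, which mark the large airways and trachea. The other Trp63 probe sets did not share this order of the lungs. The mean of 7 cartilage genes was 5.56, 4.66 and 6.01 in Hopx-null lungs 1 to 3 and 4.71, 7.48 and 7.64 in wild-type lungs 1 to 3. Of these genes 7 of 7 were lower on average in Hopx-null lungs and none passed, with the largest differences for the proteoglycan Acan at -1.71 (SE 0.80) and the collagens Col9a3 at -1.66 (SE 1.01) and Col9a1 at -1.56 (SE 1.5). The median difference over the 7 cartilage genes was -1.55, and 0.28 against wild-type replicate 1 alone, so its sign rests on wild-type replicates 2 and 3. Their summed level ranged from 7.62 to 9.56 in Hopx-null and from 7.74 to 11.66 in wild-type lungs. The groups did not overlap for Comp, 1 of 7, against 10.1% of all probe sets. Comp read 4.71 to 4.80 in Hopx-null and 5.03, 5.52 and 5.57 in wild-type lungs 1 to 3. Wild-type replicates 2 and 3 were highest in Trp63 and in the cartilage mean, and wild-type replicate 1 and Hopx-null replicate 2 were lowest in both.
Of 6 secretory airway markers 5 were lower on average in Hopx-null lungs, with summed levels of 15.13 to 15.35 against 15.09 to 15.63. The largest difference was that of Sox2, the transcription factor of proximal airway epithelium and foregut, at -0.77 (SE 0.25, limma, Benjamini-Hochberg adjusted p = 0.878). Sox2 read 8.57, 7.95 and 8.02 in Hopx-null and 8.49, 9.25 and 9.10 in wild-type lungs 1 to 3, with overlap. Scgb3a2 differed by -0.09 (SE 0.12) and Scgb3a1 by -0.72 (SE 1.05). Aldh1a1, Scgb1a1 and Cyp2f2 differed by -0.03 (SE 0.12), -0.02 (SE 0.08) and 0.00 (SE 0.09). Scgb3a1 read 11.96, 10.10 and 12.61 in Hopx-null and 10.00, 13.47 and 13.35 in wild-type lungs 1 to 3. Cyp2f2 and Aldh1a1 did not share that order. In wild-type replicate 3 Cyp2f2 was lowest, at 12.16, and Aldh1a1 read 11.81, below Hopx-null replicates 2 and 3 at 11.84 and 11.90. The desmosomal cadherin Dsc2 read 7.24, 6.95 and 7.44 and then 6.67, 8.00 and 8.00. Krt5 was likewise highest in wild-type replicates 2 and 3, while Krt7 was lowest there. These side by side values were chosen after they were seen, wild-type replicates 2 and 3 are also the lungs with Y-linked signal, and the part of airway content or sex in the keratin and Trp63 values was not tested.

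**Figure D5:**
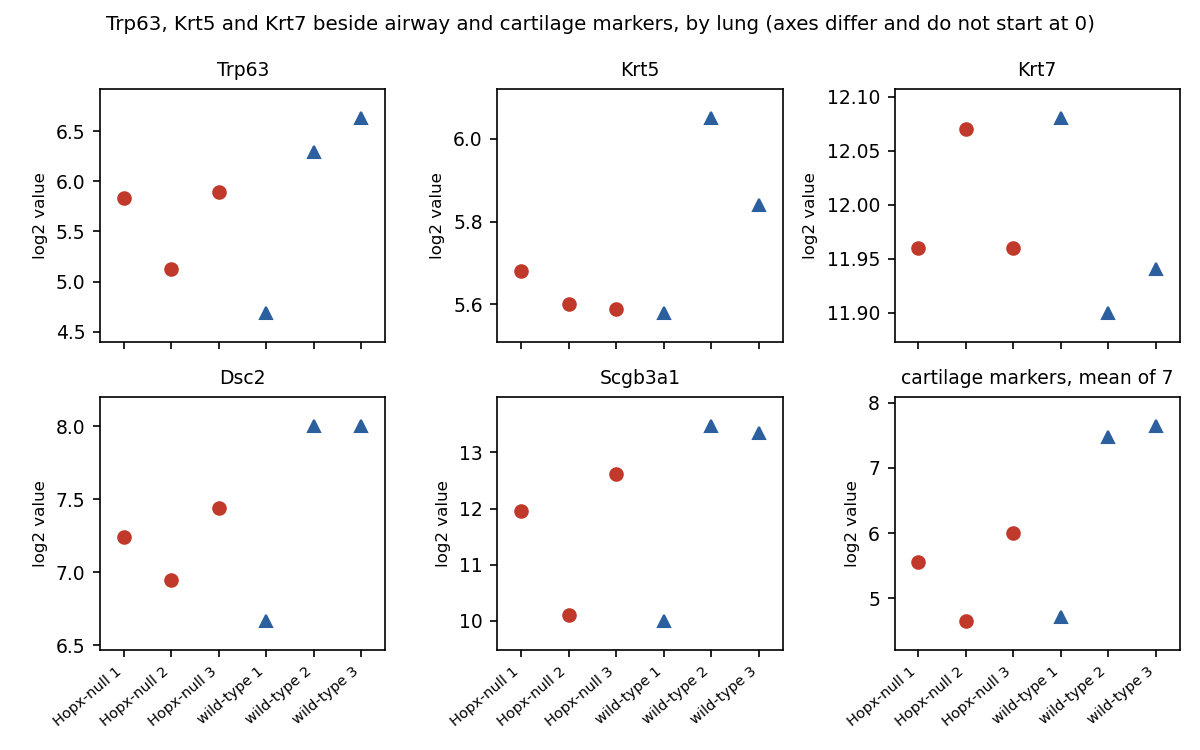
Log2 value (vertical axes, each with its own range) of Trp63, Krt5, Krt7, Dsc2 and Scgb3a1 and the mean of 7 cartilage markers in each Hopx-null (circles) and wild-type (triangles) lung. Wild-type replicates 2 and 3 are highest in every panel but that of Krt7, where they are lowest. Trp63 is shown at the 1418158_at probe set, whose order its other probe sets did not share.

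Markers of other tissues that carry these keratins were read in the same lungs. The oesophageal and foregut list had 6 of 6 genes lower in Hopx-null lungs, with a summed level of 8.49 to 8.95 against 8.89 to 9.52 in wild-type lungs. Sox2, described above, is in this list too and had its largest difference. The members Krt6a, Sprr3 and Tgm3 read at most 4.56, 3.59 and 4.29, and the transcription factor Pax9 read 4.65, 4.84 and 4.47 in Hopx-null and 4.68, 5.24 and 5.14 in wild-type lungs. Thymus genes were lower in 5 of 6, with summed levels of 6.95 to 7.79 against 7.32 to 8.00, and the lymphocyte genes Rag1, Cd3e and Cd3g differed by -0.41 (SE 0.55), -0.34 (SE 0.35) and -0.19 (SE 0.22). Foxn1, which thymic epithelium requires, read 4.52 to 4.85. Skin genes were higher in 5 of 5, with 8.20 to 8.24 against 8.02 to 8.14, and Lor, Krt10 and Krt1 differed by 0.19 (SE 0.22), 0.14 (SE 0.08) and 0.10 (SE 0.21). Their summed level follows Krt10, the brightest of them, at 7.59 to 7.81. Of the 5, 2 lay below the lower quartile in every lung, close to background. The groups did not overlap for Krt10, 1 of 5, against 10.1% of all probe sets. Mesothelial genes, whose cells also express Krt8, Krt18, Krt19 and Krt7, were higher in 6 of 8, with 12.49 to 12.62 against 12.19 to 12.81, and Lrrn4, Upk3b and Gpm6a differed by 0.32 (SE 0.20), 0.25 (SE 0.18) and 0.24 (SE 0.20). Of 3 neuroendocrine genes listed, 1 had a probe set of its own, the granule protein Chga, which read lower, at 5.26 to 5.69 against 5.79 to 6.29. None of these genes passed limma over all probe sets, and their part in the keratin values was not tested.

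Of the other keratins on the array, 39 genes, none passed, and 18 were higher and 21 lower with a median of -0.01. In all lungs 17 of the 39 lay below the lower quartile and 3 lay above the median. Krt80, a type II keratin that neighbours Krt7, was the brightest at 9.55, 9.69 and 10.04 in Hopx-null and 10.08, 9.77 and 10.42 in wild-type lungs 1 to 3. Its difference was -0.33 (SE 0.20), with overlap. The largest differences besides were -0.37 for the hair keratin Krt33b and -0.31 for the hair keratin Krt31, and the latter read between 3.83 and 4.32.
Of the genes that anchor keratins at desmosomes and hemidesmosomes, 8 of 20 were higher and 12 lower, with a median of -0.02 and none passing. The plakophilin Pkp1 differed by -0.50 (SE 0.28), Dsc2 by -0.35 (SE 0.37) and the hemidesmosomal collagen Col17a1 by 0.30 (SE 0.31). Several bright genes of this list shared the order of Krt8 at its ends. Perp, a desmosomal protein and p63 target, ran from 11.04 in Hopx-null replicate 1 to 11.91 in wild-type replicate 3, the cytolinker Eppk1 from 10.66 to 11.50 and periplakin, Ppl, from 9.07 to 10.21 in the same lungs. Krt8 ran from 11.85 to 12.46 between them, and this set was picked after its values were seen. Jup and Dsg2 had the same ends over smaller ranges, of 0.22 and 0.19. Other genes of the list above the upper quartile did not share these ends, namely Plec, Dsp, Pkp2, Itga6, Dst and Pkp4. Among them, Dsp was lowest in wild-type replicate 1 and Pkp2 highest in wild-type replicate 2.

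Of 15 genes known as p63 targets or partners, 5 were higher and 10 lower in Hopx-null lungs, with a median of -0.03, and none passed over all probe sets. The transcription factor Tfap2c differed by -0.83 (SE 0.33), reading 4.45, 4.61 and 4.12 in Hopx-null and 4.75, 4.94 and 5.98 in wild-type lungs. The epithelial cell cycle inhibitor Sfn differed by -0.46 (SE 0.15), reading 6.79, 7.03 and 7.34 against 7.62, 7.44 and 7.48. The matrix protein Fras1 differed by 0.31 (SE 0.17). The groups did not overlap for Tfap2c and Sfn, 2 of 15, against 10.1% of all probe sets.
Of 14 squamous differentiation genes, 6 were higher and 8 lower with a median of -0.08, and none passed. Sprr1a, a cornified envelope precursor that stressed epithelium also expresses, read 5.33, 6.24 and 5.74 in Hopx-null and 7.96, 6.87 and 6.68 in wild-type lungs 1 to 3, without overlap. Its difference of -1.40 (SE 0.37, limma, Benjamini-Hochberg adjusted p = 0.878) did not pass. Sprr1a was the 1 gene of the 14 without overlap, against 10.1% of all probe sets. Grhl1 differed by -0.38 and involucrin, Ivl, by -0.30. Of the 14, 5 lay below the lower quartile in every lung, Sprr3 and Sprr1b among them. Another 4 lay above the median in every lung, among them Sbsn at 9.24 to 9.81.

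The genes whose pattern was most like that of a member were taken as those with the highest r over the 6 lungs among 19412 probe sets with 1 gene and a mean above the median. For Krt8 they were Suz12, a Polycomb subunit, with r = 0.994, the adaptor Shc4 with r = 0.987 and Piwil4 with r = 0.983. For Krt5 they were cyclin I, Ccni, with r = 0.974, the osmotic stress factor Nfat5 with r = 0.972 and Urgcp with r = 0.972. For the brightest Krt13 probe set they were 9330151L19Rik with r = 0.995, the zinc finger gene Zfp454 with r = 0.989 and the dynein light chain Dnal1 with r = 0.988. With 6 lungs such values were common, and 76, 20 and 100 probe sets exceeded r = 0.95 with Krt8, Krt5 and Krt13.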

How the data were processed

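Total RNA from 6 lungs was read on single-channel Affymetrix arrays, labelled from a poly(T) primer per the labels' protocols. The authors deposited log2 expression values per probe set. Per the submitters' processing notes, RMA and Partek 6.6 were used in roles left unstated. The log2 base was inferred from the values' range. Such normalization hides any shift common to most transcripts. After 64 control probe sets were left out, 45037 were tested without a filter. The annotation named 1 gene for 34945 and several for 932, which were not used for naming.

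Genotypes were tested by limma 3.58.1 (lmFit, eBayes, R 4.3.3) with Benjamini-Hochberg adjustment over all probe sets and a threshold of 0.05. Where 1 value per gene was needed, the probe set with the highest mean was used. Correlations used exact permutation of 6 lungs. The fit was tested on simulated data. The number of arrays limits the precision.

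The members and lists were chosen with earlier results of these data known. Every member probe set is given. Of each gene list described, genes that passed or otherwise the 3 with the largest difference are named. Other genes of a list were picked after their values were seen. The replicate numbers do not pair the lungs. Alternatives were repeated quantile normalization, median centring, a filter on dim probe sets, a damping value of 64, trend and robust variance, array weights, the replicate block and each lung left out. The comparison with lungs lacking Y-linked signal was added after seeing the data.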

Additional observations from a re-analysis of the deposited data

How the results depend on the processing

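No member probe set passed under any of the alternatives run, where the smallest adjusted p (limma, Benjamini-Hochberg) was 0.682. Of 267 member values, 244 kept their direction. The trend and robust variance, the replicate block and the filter on dim probe sets leave each difference unchanged. Their values, which are among the 267, could therefore not change direction, and the count overstates how stable the directions are. The count over all probe sets, 2, was 1 with a damping value of 64 added and 1 with the replicate block. It ranged from 1 to 23 with a lung left out. The count of 23 was that without wild-type replicate 1, where genotype and Y-linked signal coincide fully. Same-numbered lungs had deviations correlating at -0.0958, -0.1212 and 0.1832, and the block changed no member's call. With array weights, Trp63 at 1452027_a_at turned to 0.023 and Krt4 at 1438394_x_at to -0.031. In lungs without Y-linked signal, where the lone wild-type lung is assumed to vary like the others, Krt7 turned to -0.077, Krt5 to 0.040, Krt14 at 1455573_at to -0.122, Trp63 at 1418158_at to 0.928, Krt4 to -0.005 and -0.006, and Krt13 at 1422454_at and 1437344_x_at to 0.005 and -0.003. With a lung left out, values that changed sign ranged from -0.012 to 0.077 for Krt7, -0.167 to 0.039 for Krt8 at 1435989_x_at, -0.838 to 0.130, -0.107 to 0.116, -0.212 to 0.003 and -0.001 to 0.071 for Trp63 in order of brightness, and -0.094 to 0.194 and -0.086 to 0.466 for Krt4. The cause of these changes was not tested. With a lung left out, the medians ranged from -0.257 to -0.105 for simple and from -0.279 to -0.065 for basal and squamous genes. The latter was -0.054 over every probe set and turned to 0.017 in lungs without Y-linked signal. Of the 14 basal and squamous probe sets, 4 lie below the lower quartile in every lung, close to background, which limits what their differences can show.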
